A study of Mus musculus with 24 samples.

Results

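Tryptophan is broken down along the kynurenine pathway, and some of its products are ligands of the aryl hydrocarbon receptor (AHR). The 9 genes described here cover that route in macrophages, and were chosen by name from the table of deposited values, which lists 35770 gene names. Ido1, Ido2 and Il4i1 encode enzymes that take up tryptophan at the start of the route, Afmid, Kmo and Kynu encode later enzymes, Ahr is the receptor, Ahrr its repressor, and Cyp1b1 an enzyme gene that AHR is known to control. All 9 names were found.

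IDO1 and IDO2 open the indole ring of tryptophan to give N-formylkynurenine, and AFMID removes the formyl group to give kynurenine. KMO hydroxylates kynurenine, and KYNU cleaves it or its hydroxylated form on the way to NAD. IL4I1 is a secreted amino acid oxidase that turns tryptophan into an indole derivative instead. Kynurenine and indole derivatives can bind AHR, which pairs with ARNT on DNA, and AHRR competes for that pairing. In macrophages Ido1 is known as an interferon gamma response gene and Il4i1 as a gene induced by IL-4, and both enzymes are known for holding back T cells by using up tryptophan and releasing AHR ligands.

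The values come from mRNA of C57BL/6 mouse bone marrow-derived macrophages (BMDMs), grown with M-CSF at 20 ng/mL, in 24 libraries, 3 from each of 8 groups. The macrophages of every group were unedited. They received control media without cancer cells, or conditioned media (CM) of LL2 cells that were WT, KEAP1 KO or NRF2 KO. LL2 is a line of mouse Lewis lung carcinoma, and it was edited with CRISPR plasmids. KEAP1 holds NRF2, a transcription factor of the antioxidant response, at a low level, so the KEAP1 KO and NRF2 KO cells differ in opposite ways in that pathway. Conditioning by the LL2 cells took 48 h, the macrophages were fed 75% CM, and each medium was given for 24 h with vehicle or with 100 nM CDDO-Me, a synthetic oleanane triterpenoid that activates NRF2. Whether a KO line was 1 clone or a pool, and whether the 3 samples of a group came from separate mice, is not given in the sources used here, so p-values measure the spread between the samples.

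Levels are given as TPM, a share of all transcripts that is corrected for transcript length. The deposited table is named as length-scaled counts while its libraries all sum to the same total, and whether the values are TPM or such counts brought to that total is not settled here. Levels are therefore compared between groups for 1 gene and not between genes, and a sum over marker genes is the sum of the listed values. The number of reads behind them is unknown. Differences are on the log2 scale of TPM scaled between libraries by trimmed means of M values (TMM) plus 1, with standard errors (SE) and adjusted p-values from limma, fitted to 13661 genes with more than 1 TPM in at least 3 libraries. Adding 1 makes the fold change of a gene near 1 TPM smaller than the ratio of its TPM. All 9 genes passed this filter. Ido1 passed it through 3 libraries, all of them from the groups where it was high. Ido2 passed it through 8, chiefly those of the groups where it was high. For both genes the filter thus favours a difference. Il4i1 was above 1 TPM in 12 libraries, among them all 6 of the groups where it was high, Kynu in 16, Kmo in 22 and the other genes in 24. Replicate 3 of NRF2 KO CM/vehicle and replicate 3 of NRF2 KO CM/CDDO-Me stood apart, with 15702 and 16299 genes listed above 0 where the other libraries had 17817 to 18993. In comparisons with NRF2 KO CM, the counts of the 9 genes that passed are therefore also given without them, and other values without them are given where so stated.

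The genes were located in the GENCODE vM39 annotation of GRCm39, the build named by the submitters. Ido1 (chr8:25074150-25087025) and Ido2 (chr8:25021908-25066349) lie on the minus strand, 7800 bases apart with no gene between them. Kmo lies at chr1:175447947-175489683 and Kynu at chr2:43445309-43572734. Il4i1 lies at chr7:44465354-44490233 on the plus strand, and 15905 bases of it also belong to Nup62, a nuclear pore gene on the same strand. Atf5 (729 bases) and Tbc1d17 (6187 bases) overlap Il4i1 on the opposite strand. Afmid (chr11:117716712-117730734) shares 14019 bases with the predicted gene Gm20708, which had a mean of at most 0.3 TPM in any group. Ahr lies at chr12:35547973-35585057, Ahrr at chr13:74359237-74440462 and Cyp1b1 at chr17:80008966-80022532, all on the minus strand.

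The 250 bases before and 50 bases after the start of each gene's main transcript were searched on both strands for short binding motifs. The 3 sequences below are the last 100 bases before the start of the genes that held a match, 5′ to 3′ on the gene's own strand, with the matched letters in capitals. They are shown because 2 of these genes, Ido1 and Kmo, carry letters of interferon and STAT6 elements, and Ahrr the letters that AHR with ARNT reads.
Ido1, chr8:25087026-25087125, minus strand: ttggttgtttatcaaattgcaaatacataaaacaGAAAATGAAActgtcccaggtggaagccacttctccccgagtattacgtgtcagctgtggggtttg
Kmo, chr1:175459434-175459533, plus strand: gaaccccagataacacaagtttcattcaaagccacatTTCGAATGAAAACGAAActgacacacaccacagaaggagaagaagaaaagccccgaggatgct
Ahrr, chr13:74440463-74440562, minus strand: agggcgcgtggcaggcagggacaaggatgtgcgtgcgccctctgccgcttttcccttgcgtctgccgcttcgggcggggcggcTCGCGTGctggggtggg
In Ido1 the capitals mark an interferon-stimulated response element (GAAA followed, after 2 bases of any kind, by GAAA) from 66 to 57 bases before the start. In Kmo they mark a STAT6 type match (TTC followed, after 4 bases of any kind, by GAA) from 63 to 54 bases before the start, which overlaps an interferon-stimulated response element from 56 to 47 bases before it. This start lies within Kmo as annotated, since another transcript begins upstream. In Ahrr they mark a xenobiotic response element (TNGCGTG) from 17 to 11 bases before the start. Of 21757 promoters of protein-coding genes of the same length, 3.84% held the interferon-stimulated response element, 6.82% the STAT6 type letters and 6.07% TNGCGTG. The antioxidant response element TGACNNNGC (12.5% of promoters) was not among the letters of any of the 9 windows. A match is a description of the letters and was not tested for binding.

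The genes that passed are counted here for each comparison, beside the share of all genes tested that did. With vehicle, Il4i1, Kmo and Ahr passed the adjusted p of 0.05 in WT CM against media, 3 of 9 genes, where 7.23% of all genes tested passed. The same comparison for KEAP1 KO CM also gave Il4i1, Kmo and Ahr, against 8.06% of all genes. For NRF2 KO CM limma called 0 of the 9 (2 at an unadjusted p under 0.05, Afmid and Kmo), against 0.00732% of all genes, and 0 were called without the 2 libraries that stood apart (0.00737% of all genes). The median difference of the 9 genes was 1.22 for the first comparison, 0.41 for the second and 0.33 for the last, and that of all genes tested was 0.01, 0.01 and -0.02. These comparisons share the media/vehicle libraries.

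CDDO-Me changed 4 of the 9 genes in WT CM (Ido1 and Ido2 higher, Il4i1 and Ahr lower), where 27.9% of all genes passed, 14.4% higher and 13.4% lower. It changed 4 in KEAP1 KO CM (Ido1, Ido2 and Ahrr higher, Il4i1 lower), where 28.8% passed, 14.4% higher and 14.3% lower. The filter favours the calls of Ido1 and Ido2 in WT CM and KEAP1 KO CM, and so these counts. In media CDDO-Me changed 1 (Ahr higher), against 6.02% of all genes. In NRF2 KO CM limma called 0 (3 at an unadjusted p under 0.05, namely Afmid, Ahrr and Cyp1b1), against 9.61% of all genes, where Afmid differed by -0.71 (SE 0.27, adjusted p = 0.116). Without the libraries that stood apart 1 was called, Afmid (-1.19, adjusted p = 0.00736), against 9.55% of all genes. Over all 8 groups together, 8 of 9 genes differed, with Afmid as the exception (adjusted p = 0.367), and 44.1% of all genes did. When the libraries that stood apart were left out, 9 of 9 did, and the share of all genes in that fit is not given here. WT CM exceeded NRF2 KO CM in 2 of the 9 genes with vehicle, Il4i1 and Ahr, where 10.6% of all genes passed. In that comparison 4 of the 9 passed without the libraries that stood apart, against 15.5% of all genes. The other counts without them were 4 for WT CM against media (19.1% of all genes), 3 for KEAP1 KO CM against media (21.3%), and with CDDO-Me 2 in media (14.9%), 4 in WT CM (43.1%) and 5 in KEAP1 KO CM (45.0%). Between KEAP1 KO CM and WT CM limma called 0 of the 9 (1 at an unadjusted p under 0.05, Ahrr) and 0 of all genes (350 at an unadjusted p under 0.05). When the libraries were weighted by their quality, 2 of the 9 and 975 of all genes were called there. With the replicate number as a block, 2 of all genes were. After scaling, no overlap between the groups was seen in 5 of the 9 genes for WT CM against media (34.9% of all genes), 4 for KEAP1 KO CM against media (36.3%), 2 for NRF2 KO CM against media (13.4%), 3 for WT CM against NRF2 KO CM (26.8%) and 0 for KEAP1 KO CM against WT CM (12.3%). For CDDO-Me none was seen in 3 genes in media (31.1%), 4 in WT CM (50.5%), 4 in KEAP1 KO CM (49.3%) and 2 in NRF2 KO CM (17.6%). Since the culture is measured in bulk, fewer cells of a type and less RNA per cell cannot be told apart in any of these values.

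**Figure D1:**
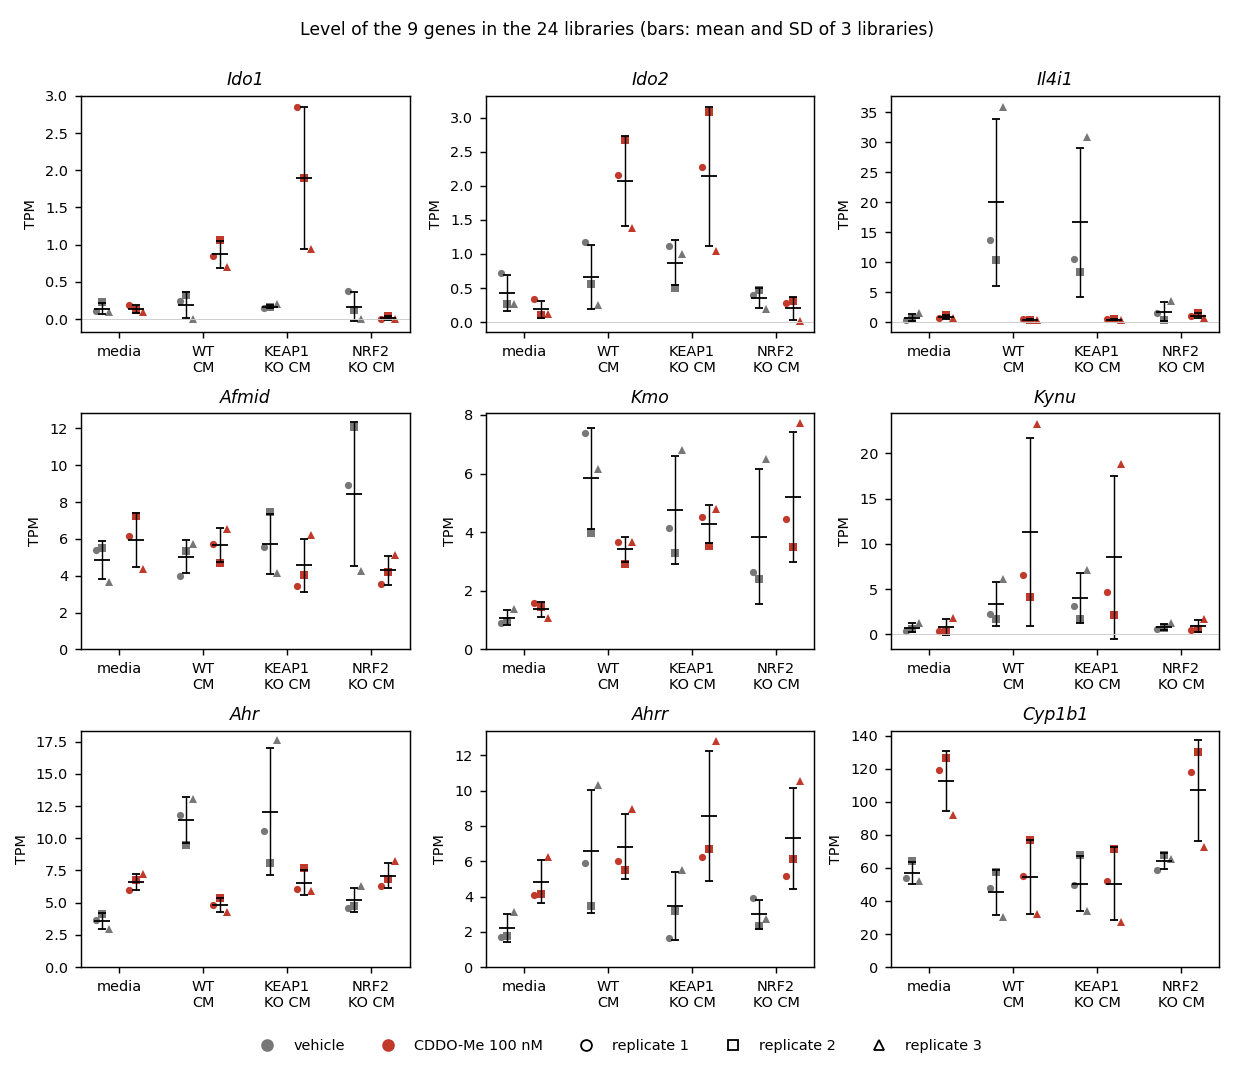
TPM of the 9 genes (vertical axes, linear) in the 4 media (horizontal axis) with vehicle (grey) or 100 nM CDDO-Me (red). Symbols are the 3 libraries by replicate number, and bars show mean and SD; Il4i1 stands out in WT CM and KEAP1 KO CM with vehicle, where the 6 libraries lie between 8.4 and 35.9 TPM, and Ido1 and Ido2 are highest in the same media with CDDO-Me.

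Il4i1, the IL-4 induced oxidase, showed the largest differences of the 9 genes. In media/vehicle BMDMs it was at 0.343, 0.505 and 1.49 TPM, and in WT/vehicle BMDMs at 13.7, 10.3 and 35.9 TPM. KEAP1 KO/vehicle BMDMs had 10.6, 8.4 and 30.9 TPM. Every library of these CM groups was above every media library, and NRF2 KO/vehicle BMDMs, at 1.45, 0.356 and 3.46 TPM, overlapped with media. The difference from media was 3.45 (SE 0.46, limma, adjusted p = 4.86e-05) for WT CM and 3.11 (SE 0.46, adjusted p = 0.000151) for KEAP1 KO CM. A direct comparison of WT CM with NRF2 KO CM gave 2.92 (SE 0.46, adjusted p = 0.000312), where 10.6% of all genes passed. In a fit of these 2 groups alone that call was lost (adjusted p = 0.101), and without the libraries that stood apart it was kept (3.38, adjusted p = 0.000121).

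With CDDO-Me, Il4i1 was at 0.514, 0.287 and 0.395 TPM in WT CM and at 0.448, 0.494 and 0.284 TPM in KEAP1 KO CM, below every library of the same media with vehicle. It fell by 3.68 in WT CM (SE 0.46, limma, adjusted p = 3.51e-06) and by 3.34 in KEAP1 KO CM (SE 0.46, adjusted p = 1.11e-05) on the log2 scale, to a mean TPM of 0.0199 and 0.0246 times that with vehicle. In media it was at 0.732, 1.16 and 0.618 TPM with CDDO-Me and in NRF2 KO CM at 1.06, 1.5 and 0.707 TPM, and both overlapped with vehicle. The effect of CDDO-Me differed from that in media by -3.77 (SE 0.66, adjusted p = 0.000341) in WT CM, where 15.3% of genes passed, and by -3.43 (SE 0.66, adjusted p = 0.000899) in KEAP1 KO CM, where 14.8% passed. Ordered by mean TPM, WT/vehicle (20.0 ± 13.9, SD, n = 3) and KEAP1 KO/vehicle (16.6 ± 12.4) came first and overlapped each other, and the third group, NRF2 KO/vehicle (1.76 ± 1.58), lay below both.

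How kallisto split reads between Il4i1 and Nup62 was not tested, so the level of Il4i1 is uncertain to that extent. Nup62, named because it overlaps, was at 47.9 ± 1.68 TPM in media/vehicle, 80.3 ± 2.56 in WT/vehicle, 79.7 ± 5.56 in KEAP1 KO/vehicle and 45.7 ± 6.37 in NRF2 KO/vehicle BMDMs. With CDDO-Me it was at 61.1 ± 3.42 TPM in media, 42.4 ± 4.38 in WT CM, 43.3 ± 6.19 in KEAP1 KO CM and 64.5 ± 9.48 in NRF2 KO CM. It thus rose and fell in the same comparisons as Il4i1 by smaller amounts, with 0.80 (SE 0.11, adjusted p = 4.05e-05) for WT CM against media and -0.78 (SE 0.11, adjusted p = 8.96e-06) for CDDO-Me in WT CM. Unlike Il4i1, it was also higher with CDDO-Me in media (0.36, SE 0.11, adjusted p = 0.0491) and in NRF2 KO CM (0.52, SE 0.11, adjusted p = 0.00289, and 0.53, adjusted p = 0.0036, without the libraries that stood apart). Atf5, on the opposite strand, had means of 87.3 TPM in media/vehicle and 163 TPM in WT/vehicle BMDMs, which did not pass (limma, adjusted p = 0.239). It was higher in WT CM than in NRF2 KO CM (1.60, SE 0.44, adjusted p = 0.024). Tbc1d17 did not pass in either comparison.

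Ido1, the interferon gamma responsive dioxygenase, was near 0 in every vehicle group. Its 12 vehicle libraries lay between 0 and 0.379 TPM, with 2 listed at 0. In WT CM/CDDO-Me BMDMs it was at 0.85, 1.07 and 0.697 TPM, and in KEAP1 KO CM/CDDO-Me BMDMs at 2.86, 1.9 and 0.946 TPM. All 6 libraries were above every other library of the series. In media/CDDO-Me BMDMs it was at 0.194, 0.117 and 0.0897 TPM, while NRF2 KO CM/CDDO-Me BMDMs had 0.0413 TPM in 1 library and were listed at 0 in the others. With CDDO-Me Ido1 rose by 0.73 in WT CM (SE 0.19, limma, adjusted p = 0.00728) and by 1.33 in KEAP1 KO CM (SE 0.19, adjusted p = 2e-05). The size of these differences follows the number added before the logarithm, and with 0.1 in place of 1 they were 2.11 (adjusted p = 0.0102) and 2.92 (adjusted p = 0.000687). The effect differed from that in media by 1.34 (SE 0.27, adjusted p = 0.0017) in KEAP1 KO CM, or 2.94 (adjusted p = 0.021) with 0.1 added, and by 0.73 (SE 0.27, adjusted p = 0.0851) in WT CM, which did not pass, or 2.12 (adjusted p = 0.105). The highest level of Ido1 in any library was thus 2.86 TPM, and the filter favours the differences given for it.

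Ido2, its neighbour and paralog, had the same highest groups, and it passed the filter chiefly through them. It was at 2.16, 2.68 and 1.38 TPM in WT CM/CDDO-Me BMDMs against 1.18, 0.563 and 0.256 TPM in WT/vehicle BMDMs. In KEAP1 KO CM it was at 2.28, 3.08 and 1.05 TPM with CDDO-Me and at 1.12, 0.499 and 0.992 TPM with vehicle. Neither pair overlapped after scaling, although the lowest KEAP1 KO CM/CDDO-Me library and the highest KEAP1 KO/vehicle library were close. Ido2 rose by 0.99 (SE 0.24, adjusted p = 0.00388) in WT CM and by 0.80 (SE 0.24, adjusted p = 0.0171) in KEAP1 KO CM. With 0.1 added in place of 1 these differences were 1.78 (adjusted p = 0.0235) and 1.3 (adjusted p = 0.0981). The second call was also lost without KEAP1 KO CM/vehicle replicate 2 (adjusted p = 0.0973), without KEAP1 KO CM/CDDO-Me replicate 1 (0.0659) and without KEAP1 KO CM/CDDO-Me replicate 2 (0.106), and in a fit of these 2 groups alone (0.0664). In media Ido2 was at 0.726, 0.268 and 0.268 TPM with vehicle and at 0.336, 0.109 and 0.118 TPM with CDDO-Me, and the effect in WT CM differed from that in media by 1.23 (SE 0.34, adjusted p = 0.0185), or 2.58 (adjusted p = 0.0343) with 0.1 added. That call was lost without media/vehicle replicate 1 (0.0594), WT/vehicle replicate 3 (0.0564) or WT CM/CDDO-Me replicate 2 (0.0526). Across the 24 libraries Ido1 and Ido2 had a Pearson r of 0.86, and 0.56 after the group means were removed, while the libraries share their groups and replicate numbers.

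**Figure D2:**
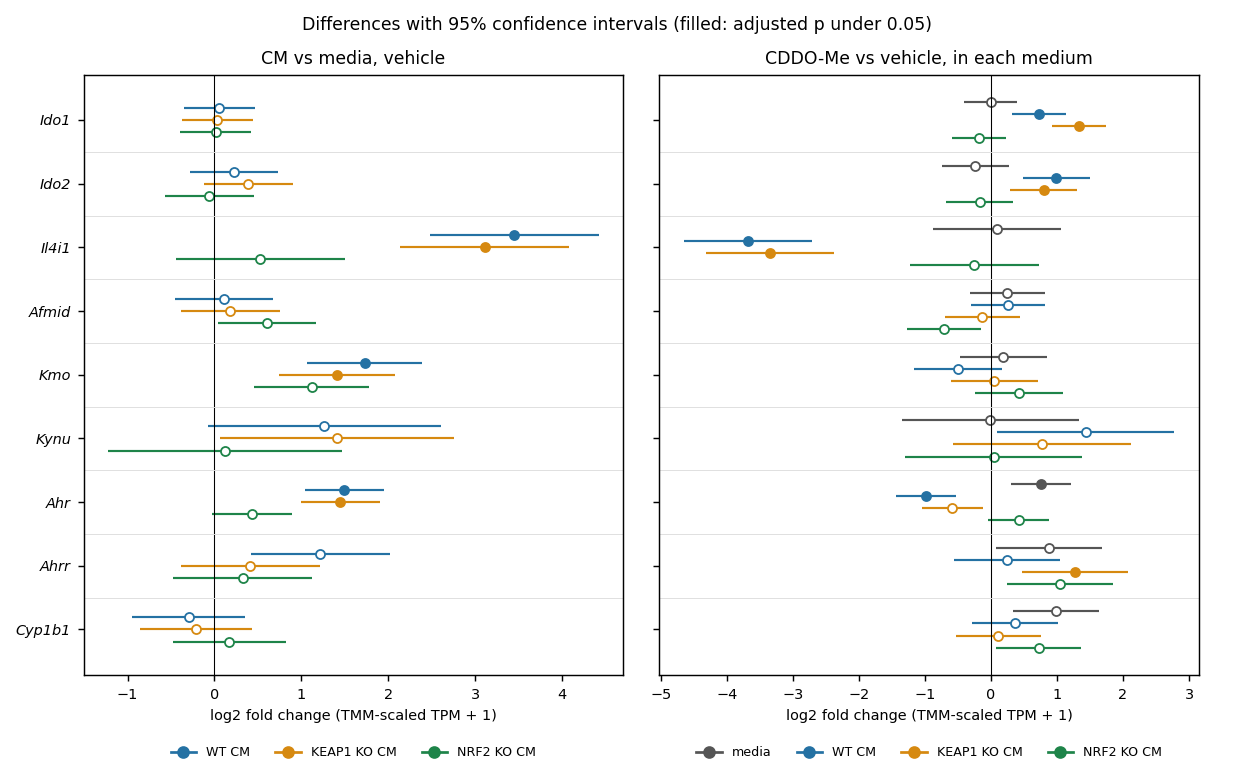
Differences on the log2 scale of TMM-scaled TPM plus 1 (horizontal axes) for the 9 genes, left for CM against media with vehicle and right for CDDO-Me against vehicle within each medium. Lines are 95% confidence intervals and filled points have an adjusted p under 0.05; Il4i1 is at 3.45 and 3.11 on the left and at -3.68 and -3.34 on the right for WT CM and KEAP1 KO CM, while Ido1 and Ido2 are above 0 on the right for the same media.

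Among the later enzymes, Kmo, the kynurenine hydroxylase, was higher with CM. It was at 0.91, 0.96 and 1.38 TPM in media/vehicle BMDMs and at 7.39, 3.99 and 6.15 TPM in WT/vehicle BMDMs. KEAP1 KO/vehicle BMDMs had 4.14, 3.29 and 6.81 TPM, and NRF2 KO/vehicle BMDMs 2.63, 2.41 and 6.5 TPM. All 9 CM libraries were above the 3 media libraries. The difference was 1.73 (SE 0.32, limma, adjusted p = 0.00132) for WT CM and 1.41 (SE 0.32, adjusted p = 0.00711) for KEAP1 KO CM. For NRF2 KO CM it did not pass (adjusted p = 0.408), in a comparison where 1 gene in all did. WT CM and NRF2 KO CM differed in Kmo by 0.61 (SE 0.32, adjusted p = 0.218), by 1.01 (adjusted p = 0.01) without the libraries that stood apart, and by 0.38 (adjusted p = 0.442) without NRF2 KO CM/vehicle replicate 2. With CDDO-Me the 9 CM libraries lay between 2.93 and 7.71 TPM and the 3 media libraries between 1.07 and 1.57 TPM. Unlike Il4i1, Kmo did not pass with CDDO-Me in any medium, except in WT CM when the libraries were weighted by their quality (-0.62, adjusted p = 0.00729). Kmo overlaps Fh1 on the opposite strand, and whether the counting used strand is not given in the sources used here. Fh1 was at a mean of 41.2 TPM in media/vehicle and 72.9 TPM in WT/vehicle BMDMs, which did not pass (limma, adjusted p = 0.187).

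Kynu, which cleaves kynurenine, had the largest SE of the 9 genes (0.64). It was at 2.22, 1.66 and 6.1 TPM in WT/vehicle BMDMs against 0.354, 0.521 and 1.27 TPM in media/vehicle BMDMs, and at 3.14, 1.72 and 7.14 TPM in KEAP1 KO/vehicle BMDMs. With CDDO-Me it was at 6.54, 4.16 and 23.2 TPM in WT CM and at 4.64, 2.08 and 18.8 TPM in KEAP1 KO CM. The 6 media libraries and the 6 NRF2 KO CM libraries stayed between 0.232 and 1.76 TPM, and the highest of them, media/CDDO-Me replicate 3, was above the lowest library of WT/vehicle and of KEAP1 KO/vehicle BMDMs. None of these differences passed in limma without a block or library weights, with 1.27 (SE 0.64, adjusted p = 0.32) for WT CM against media and 1.43 (SE 0.64, adjusted p = 0.113) for CDDO-Me in WT CM. The latter was 0.76 (adjusted p = 0.496) without WT CM/CDDO-Me replicate 3 and 1.92 (adjusted p = 0.0505) without WT CM/CDDO-Me replicate 2. With the replicate number as a block, Kynu passed for CDDO-Me in WT CM (adjusted p = 0.00188) and for KEAP1 KO CM against media (1.41, adjusted p = 0.00652). In these comparisons not every pair of same-numbered libraries had an r over 0.1. In WT CM against media the samples were paired by their numbers, as far as their deviations show, and with the replicate block Kynu passed there (1.27, adjusted p = 0.014), as did Ahrr (1.22, adjusted p = 0.00134), which made 5 of the 9 genes where 12.8% of all genes passed with the block.

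Afmid, the formamidase, lay between 3.43 and 12.1 TPM in all 24 libraries, and each group overlapped with its neighbours in the order of means. Its highest values, 8.94 and 12.1 TPM, were those of NRF2 KO/vehicle replicates 1 and 2, while replicate 3 of that group was at 4.28 TPM. Without the libraries that stood apart, Afmid was lower in WT CM than in NRF2 KO CM by -0.83 (adjusted p = 0.0295), against -0.49 (adjusted p = 0.242) with them and -0.25 (adjusted p = 0.544) without NRF2 KO CM/vehicle replicate 2. The difference with CDDO-Me in NRF2 KO CM, -0.71, likewise became -0.47 (adjusted p = 0.31) without that library.

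Ahr, the receptor, followed Il4i1 with vehicle at a smaller scale. It was at 3.65, 4.15 and 2.94 TPM in media/vehicle BMDMs, 11.8, 9.51 and 13 TPM in WT/vehicle BMDMs and 10.6, 8.05 and 17.6 TPM in KEAP1 KO/vehicle BMDMs. NRF2 KO/vehicle BMDMs, at 4.6, 4.7 and 6.26 TPM, lay between them and did not overlap with either. The rise from media was 1.5 (SE 0.22, limma, adjusted p = 0.000132) in WT CM and 1.45 (SE 0.22, adjusted p = 0.000168) in KEAP1 KO CM. WT CM exceeded NRF2 KO CM by 1.07 (SE 0.22, adjusted p = 0.00335), a call that was lost in a fit of these 2 groups alone (adjusted p = 0.103) and kept without the libraries that stood apart (1.22, adjusted p = 0.00118).

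The difference of Ahr with CDDO-Me had opposite signs in media and in WT CM. In WT CM it was at 4.8, 5.36 and 4.27 TPM with CDDO-Me, below every WT/vehicle library, and it fell by 0.99 on the log2 scale (SE 0.22, adjusted p = 0.00164). In KEAP1 KO CM it was at 6.06, 7.66 and 5.94 TPM, which overlapped with vehicle after scaling, with a difference of -0.58 (SE 0.22, adjusted p = 0.0528) that did not pass. Leaving out KEAP1 KO CM/vehicle replicate 2 made it -0.84 (adjusted p = 0.00648), leaving out replicate 3 of that group made it -0.28 (adjusted p = 0.346), and without the libraries that stood apart it was -0.59 (adjusted p = 0.0212). In media it was at 5.97, 6.75 and 7.21 TPM, above every media/vehicle library, with a difference of 0.75 (SE 0.22, adjusted p = 0.0463). That call was lost without any 1 of the 6 media libraries, at adjusted p from 0.07 to 0.189. In NRF2 KO CM Ahr was at 6.29, 6.81 and 8.22 TPM with CDDO-Me and overlapped narrowly, after scaling, with vehicle. The test of the difference between media passed for WT CM (-1.74, SE 0.31, adjusted p = 0.000424) and for KEAP1 KO CM (-1.34, SE 0.31, adjusted p = 0.00464). Both use the same media libraries. With CDDO-Me the 12 libraries lay within 4.27 to 8.22 TPM, a narrower span than the 2.94 to 17.6 TPM of the vehicle groups.

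**Figure D3:**
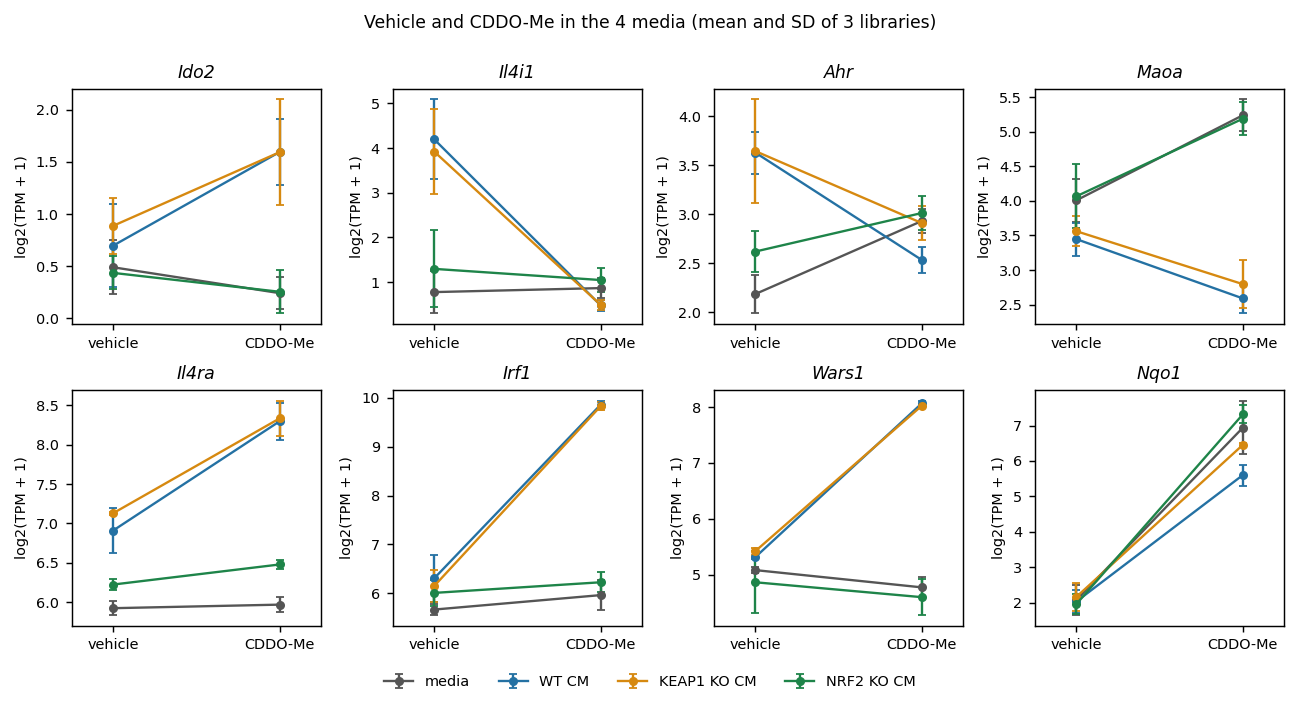
Mean and SD of log2(TPM + 1) over 3 libraries (vertical axes) with vehicle and with CDDO-Me (horizontal axes), 1 line for each medium. In Ahr and Maoa the lines of media and NRF2 KO CM go up and those of WT CM and KEAP1 KO CM go down, Il4i1 falls and Il4ra, Irf1 and Wars1 rise in WT CM and KEAP1 KO CM, and Nqo1 rises in all 4 media.

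Ahrr, the repressor of AHR, was at 1.73, 1.75 and 3.11 TPM in media/vehicle BMDMs and at 5.92, 3.46 and 10.3 TPM in WT/vehicle BMDMs. That difference, 1.22 (SE 0.38, limma, adjusted p = 0.0615), passed only with the replicate block, with array weights, without WT/vehicle replicate 2 (1.56, adjusted p = 0.0276) and without the libraries that stood apart (1.22, adjusted p = 0.0277). In KEAP1 KO CM Ahrr was at 1.67, 3.2 and 5.52 TPM with vehicle and at 6.22, 6.71 and 12.8 TPM with CDDO-Me, a rise of 1.27 (SE 0.38, adjusted p = 0.0153). This call was lost without KEAP1 KO CM/vehicle replicate 1 (0.96, adjusted p = 0.105) and without KEAP1 KO CM/CDDO-Me replicate 3 (0.94, adjusted p = 0.107). In media Ahrr was at 4.11, 4.16 and 6.25 TPM with CDDO-Me and in NRF2 KO CM at 5.19, 6.14 and 10.5 TPM, above every library of the same medium with vehicle. Neither passed in the fit of all libraries without a block (adjusted p = 0.237 in media). With the block both passed, at 0.88 (adjusted p = 0.0165) in media and 1.04 (adjusted p = 0.00408) in NRF2 KO CM, and the difference in media also passed with array weights (0.83, adjusted p = 0.0249). Without the libraries that stood apart the difference in NRF2 KO CM was 0.73 (adjusted p = 0.406). All 12 CDDO-Me libraries were thus between 4.11 and 12.8 TPM, and the 12 vehicle libraries between 1.67 and 10.3 TPM.

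Cyp1b1, a monooxygenase gene under the control of AHR in many tissues, had values between 27.4 and 131 TPM in the 24 libraries. In media it was at 53.7, 64.4 and 52.4 TPM with vehicle and at 119, 127 and 92.1 TPM with CDDO-Me. In NRF2 KO CM it was at 58.6, 67.8 and 65.6 TPM with vehicle and at 118, 131 and 72.5 TPM with CDDO-Me. In both media every CDDO-Me library was above every vehicle library. The differences, 0.99 (SE 0.31, adjusted p = 0.0683) in media and 0.72 (SE 0.31, adjusted p = 0.174) in NRF2 KO CM, passed only with the replicate block (0.99, adjusted p = 0.00231, and 0.72, adjusted p = 0.0165), with array weights, and, for media, also in a fit of the 2 groups alone (0.98, adjusted p = 0.00203) and without the libraries that stood apart (1.00, adjusted p = 0.0357). Without those libraries the difference in NRF2 KO CM did not pass (adjusted p = 0.115). In WT CM and KEAP1 KO CM the values with CDDO-Me, from 27.4 to 77.0 TPM, overlapped with those with vehicle, from 30.1 to 67.8 TPM. With the block, 3 of the 9 genes passed in media and 2 in NRF2 KO CM, where 10.7% and 14.5% of all genes passed. Acta2, a smooth muscle actin gene used as a fibroblast marker, had a group mean of 394 TPM in media/vehicle and 832 TPM in media/CDDO-Me BMDMs, the groups between which Cyp1b1 was also higher. That difference did not pass without the block (1.03, SE 0.34, adjusted p = 0.0814). With the block, which called Cyp1b1 there, a fibroblast marker did rise in media, and Acta2 was higher in every same-numbered pair. Other fibroblast markers, Dcn and Lum, were lower in every such pair. Dcn was at 39.5, 40.0 and 22.9 TPM with vehicle and at 24.1, 20.7 and 13.4 TPM with CDDO-Me. Col1a1, Col1a2, Col3a1 and Pdgfrb were higher in some pairs and lower in others. The part of such cells in the values of Cyp1b1 was not tested.

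The libraries numbered 3 stood apart in several of these genes. Kynu was highest in replicate 3 in 8 of 8 groups, Ahrr was highest there in 7 of 8, and Cyp1b1 lowest in 7 of 8. After the group means were removed, Kynu and Cyp1b1 had a Pearson r of -0.94 over the 24 libraries, and Kynu and Ahrr 0.79. The sum of 7 fibroblast marker genes (Col1a1, Col1a2, Col3a1, Acta2, Dcn, Lum, Pdgfrb) was lowest in replicate 3 in 8 of 8 groups, and in all 8 groups replicate 2 was above replicate 1 and replicate 1 above replicate 3. In WT CM/CDDO-Me BMDMs, for example, the sum was 432, 677 and 250 TPM, where Kynu was 6.54, 4.16 and 23.2 TPM and Cyp1b1 55.0, 77.0 and 32.2 TPM. The part of such cells in the levels of Kynu, Ahrr and Cyp1b1 was not tested.

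**Figure D4:**
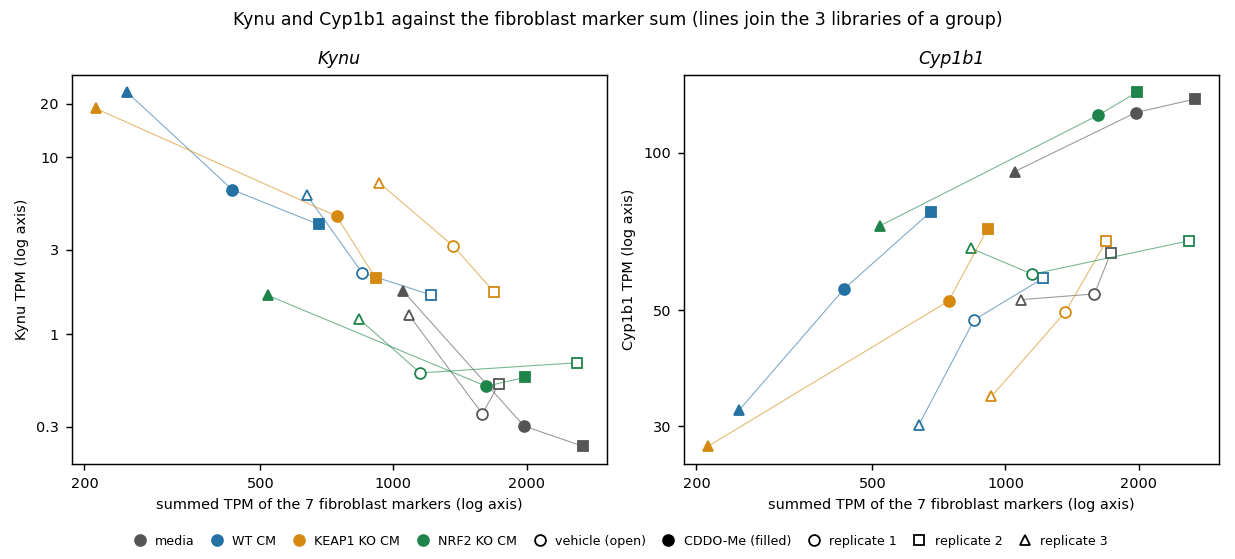
Kynu (left) and Cyp1b1 (right) in TPM against the summed TPM of 7 fibroblast markers, all on log axes, with 1 point for each of the 24 libraries and lines that join the 3 libraries of a group. Replicate 3 (triangles) has the lowest marker sum in 8 of 8 groups, the highest Kynu in 8 of 8 and the lowest Cyp1b1 in 7 of 8.

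Other genes of the pathway were taken from lists written by hand. Of 15 genes of the kynurenine and NAD branch, 11 were tested. With CDDO-Me 4 of them rose in WT CM and 4 in KEAP1 KO CM, where 14.4% of all genes rose in each. In media 1 rose and in NRF2 KO CM 1, where 6.02% and 9.61% of all genes passed in either direction, and the count in NRF2 KO CM was also 1 without the libraries that stood apart. None of the 11 fell, except that 1 fell in WT CM and 1 in KEAP1 KO CM without the libraries that stood apart, where 43.1% and 45.0% of all genes passed. The medians of the 11 genes in these media were -0.05, 0.07, 0.14 and 0.28, beside -0.01, -0.02, -0.003 and 0.02 for all genes. Nampt, the enzyme that recycles nicotinamide to NAD, rose in all 4 media (in NRF2 KO CM by 1.71, and by 1.58 without the libraries that stood apart), from a mean of 70.0 to 345 TPM in WT CM (2.41, SE 0.27, adjusted p = 6.04e-07) and from 65.3 to 169 TPM in media (1.36, SE 0.27, adjusted p = 0.00261). Kyat3, a kynurenine aminotransferase, rose from 5.53 to 10.9 TPM in WT CM (0.98, SE 0.21, adjusted p = 0.00112), and Got2 and Haao rose in both WT CM and KEAP1 KO CM. Tdo2, the dioxygenase that liver uses in place of Ido1, stayed at a mean of at most 0.284 TPM, and Qprt, which leads to NAD, at most 0.118 TPM. With vehicle, limma called 0 of the 11 in each CM against media (Nmnat1 alone at an unadjusted p under 0.05, in WT CM and KEAP1 KO CM).

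Of 7 genes of tryptophan transport and charging, Wars1, which loads tryptophan on its tRNA and is a known interferon response gene, rose with CDDO-Me from 38.8 to 267 TPM in WT CM (2.88, SE 0.16, limma, adjusted p = 3.5e-11) and from 41.9 to 259 TPM in KEAP1 KO CM. It was at 26.5 TPM with CDDO-Me in media and at 23.6 TPM in NRF2 KO CM, where its difference from vehicle was -0.23 (adjusted p = 0.467), and -0.36 (adjusted p = 0.00573) without the libraries that stood apart. Slc3a2, a shared subunit of amino acid transporters, rose in all 4 media (in NRF2 KO CM by 1.04, and by 0.74 without the libraries that stood apart), by 0.71 in media (SE 0.18, adjusted p = 0.0233) and by 1.61 in WT CM (SE 0.18, adjusted p = 9.33e-07). Slc16a10, an aromatic amino acid transporter, fell by 0.88 (SE 0.18, adjusted p = 0.00316) when the medium was WT CM and by 1.05 (SE 0.18, adjusted p = 0.000552) when it was KEAP1 KO CM. In all, 3 of the 7 rose and 2 fell with CDDO-Me in WT CM, 2 and 2 in KEAP1 KO CM, 1 and 2 in media, and 1 and 1 in NRF2 KO CM, beside 27.9%, 28.8%, 6.02% and 9.61% of all genes that passed in either direction. The last count of genes that fell became 2 with the block (14.5% of all genes) and 3 without the libraries that stood apart (9.55%).

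Of 5 genes of other tryptophan routes only Maoa and Maob were tested. Maoa, a monoamine oxidase that degrades serotonin, rose with CDDO-Me from 15.3 to 37.0 TPM in media (1.24, SE 0.20, adjusted p = 0.000362) and from 16.3 to 35.7 TPM in NRF2 KO CM (1.15, SE 0.20, adjusted p = 0.000526, and 1.03, adjusted p = 0.0029, without the libraries that stood apart). In WT CM it fell by 0.75 (SE 0.20, adjusted p = 0.0065) and in KEAP1 KO CM by 0.62 (SE 0.20, adjusted p = 0.0223). The difference of these effects from that in media was -1.99 (SE 0.28, adjusted p = 2.88e-05) for WT CM and -1.86 (SE 0.28, adjusted p = 6.96e-05) for KEAP1 KO CM. With vehicle Maoa differed from media by -0.50 (adjusted p = 0.16) in WT CM and by -0.44 (adjusted p = 0.215) in KEAP1 KO CM, which did not pass, where Ahr rose. Tph1, Tph2 and Ddc, the genes of serotonin synthesis, were at a mean of at most 0.308 TPM in every group.

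Among the partners of AHR, Arnt, with which AHR binds DNA, was between 24.9 and 32.4 TPM in the group means. Of the 6 genes of the AHR complex, CDDO-Me raised 3 and lowered 1 in WT CM, raised 1 and lowered 1 in KEAP1 KO CM, and raised 1 in media and 1 in NRF2 KO CM. Of all genes 27.9%, 28.8%, 6.02% and 9.61% passed in these media. The chaperone gene Hsp90aa1 fell by 0.58 in WT CM (SE 0.17, limma, adjusted p = 0.014). With vehicle 0 of the 6 were called for any CM against media (2, 2 and 1 at an unadjusted p under 0.05), and with the block 2 rose with WT CM, 2 with CDDO-Me in media and 2 with CDDO-Me in NRF2 KO CM, where 12.8%, 10.7% and 14.5% of all genes passed. CDDO-Me, without the libraries that stood apart, raised 3 and lowered 2 in WT CM and in KEAP1 KO CM, and raised 2 in media and 2 in NRF2 KO CM, where 43.1%, 45.0%, 14.9% and 9.55% passed.

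A further list held AHR target genes other than Cyp1b1. Cyp1a1 and Cyp1a2, the targets most used to read AHR activity, were at a mean of at most 0.058 and 0.0121 TPM in every group. Of the 5 targets tested, limma called 0 for each CM against media with vehicle (1, 1 and 0 at an unadjusted p under 0.05), the comparisons in which Ahr itself was higher with WT CM and KEAP1 KO CM. With the block 1 rose with WT CM (12.8% of all genes), and without the libraries that stood apart 1 rose with each of WT CM and KEAP1 KO CM (19.1% and 21.3%). With CDDO-Me 3 rose in media, 3 in WT CM, 4 in KEAP1 KO CM and 4 in NRF2 KO CM, with medians of 1.56, 1.28, 1.44 and 2.69, where 6.02%, 27.9%, 28.8% and 9.61% of all genes passed in either direction. The count in NRF2 KO CM was also 4 when the libraries that stood apart were left out, and that in KEAP1 KO CM became 5. These targets are also known targets of NRF2 in part, Nqo1 above all. Nqo1, a quinone reductase gene, was at 2.63, 2.51 and 4.96 TPM in media/vehicle BMDMs and at 104, 79.0 and 219 TPM in media/CDDO-Me BMDMs, a difference of 4.86 (SE 0.33, adjusted p = 2.19e-08). Its mean with CDDO-Me was 48.3 TPM in WT CM, 86.7 TPM in KEAP1 KO CM and 160 TPM in NRF2 KO CM, where it rose by 5.37 (adjusted p = 4.03e-09), and by 5.08 (adjusted p = 1.86e-07) without the libraries that stood apart. Ugt1a6a, which shares exons with Ugt1a6b and is uncertain to that extent, rose by 2.26 in media (SE 0.22, adjusted p = 1.39e-06) and by 1.28 in WT CM (SE 0.22, adjusted p = 0.000145), and the effects differed by -0.99 (SE 0.31, adjusted p = 0.0373). Tiparp, an AHR target that encodes a poly(ADP-ribose) polymerase acting back on AHR, was between 13.0 and 17.7 TPM in all 8 group means. It did not pass with CDDO-Me in any medium in the fit of all libraries. Without the libraries that stood apart it was among the 5 that rose in KEAP1 KO CM.

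A last list held genes known to act upstream of Ido1 and Il4i1. Of 7 tested, 4 rose with CDDO-Me in WT CM and 4 in KEAP1 KO CM, with medians of 1.52 and 1.37, where 14.4% of all genes rose in each. In media limma called 0 of the 7 and in NRF2 KO CM 0 (0 and 1 at an unadjusted p under 0.05), where 6.02% and 9.61% of all genes passed. Without the libraries that stood apart the counts were 4 higher and 1 lower in WT CM, 5 higher in KEAP1 KO CM, 1 lower in media and 0 in NRF2 KO CM, where 43.1%, 45.0%, 14.9% and 9.55% of all genes passed in either direction. Irf1, an interferon regulatory factor that acts on Ido1, was at a mean of 81.0 TPM in WT/vehicle and 930 TPM in WT CM/CDDO-Me BMDMs (3.69, SE 0.24, adjusted p = 4.19e-10). Ifng, the gene of interferon gamma itself, was listed at 0.0212 TPM at most in the group means. With vehicle 4 of the 7 had an unadjusted p under 0.05 (limma) in WT CM against media, 3 in KEAP1 KO CM and 4 in NRF2 KO CM. Of the 13661 genes 2443, 2593 and 1650 did. Il4ra, a chain of the IL-4 receptor, rose with WT CM from 59.7 to 121 TPM (1.06, SE 0.12, adjusted p = 8.61e-06) as Il4i1 did. Il4ra was also among the 4 in NRF2 KO CM, where Il4i1 overlapped with media. In WT CM Il4ra rose further with CDDO-Me, to 316 TPM (1.52, SE 0.12, adjusted p = 9.72e-09), in the comparison where Il4i1 fell. Stat6, which carries the IL-4 signal, was between 108 and 137 TPM in the group means.

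The cultures carried the markers of macrophages in every group. The 6 macrophage markers summed to 2732 to 4241 TPM in the group means, and Cd68 had the highest listed value in each group except KEAP1 KO CM/CDDO-Me, where Csf1r had. With CDDO-Me the sum was 2732 TPM in WT CM, against 4241 TPM with vehicle, and 2 of the 6 markers, Fcgr1 and Mertk, rose while Cd68 fell, as they did in KEAP1 KO CM. Cd68, a lysosomal membrane protein gene of macrophages, had a mean of 2109 TPM in WT/vehicle and 725 TPM in WT CM/CDDO-Me BMDMs, and fell by 1.41 on the log2 scale in WT CM (SE 0.17, limma, adjusted p = 1.42e-06) and by 1.31 in KEAP1 KO CM (SE 0.17, adjusted p = 3.55e-06). Adgre1, which encodes F4/80, had means of 850 and 553 TPM in the same groups of WT CM and did not pass (-0.49, SE 0.18, adjusted p = 0.0518). These lie in the comparisons in which Ido1 and Ido2 rose and Il4i1 fell, and their part in those results was not tested. Fcgr1, which is also an interferon gamma response gene, rose from 50.5 to 479 TPM with CDDO-Me in WT CM (3.35, SE 0.16, limma, adjusted p = 4.41e-12), and fell by 1.17 in media (SE 0.16, adjusted p = 8.46e-05). Itgam rose in media (0.68, SE 0.18, adjusted p = 0.024), where Ahr was higher. In NRF2 KO CM Itgam rose (0.61, adjusted p = 0.032) while Cd68 (-0.61, adjusted p = 0.0228) and Fcgr1 (-1.10, adjusted p = 0.000123) fell. Each also passed without the libraries that stood apart. The other markers did not pass in either medium, and the part of these markers was not tested.

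With vehicle the macrophage markers also differed between media. In WT CM against media Itgam rose from 172 to 247 TPM (0.60, SE 0.18, limma, adjusted p = 0.0433), while Fcgr1 fell from 84.5 to 50.5 TPM (-0.66, SE 0.16, adjusted p = 0.0146) and Mertk, a receptor for dying cells, from 50.3 to 32.4 TPM (-0.55, SE 0.13, adjusted p = 0.00927). In KEAP1 KO CM against media Fcgr1 fell by 0.86 (SE 0.16, adjusted p = 0.00157) and Mertk by 0.50 (SE 0.13, adjusted p = 0.0168). In WT CM against NRF2 KO CM Adgre1 was higher (0.66, SE 0.18, adjusted p = 0.0233) and Mertk lower (-0.56, SE 0.13, adjusted p = 0.00669). These are the comparisons in which Il4i1 and Ahr were higher, and the part of these markers was not tested.

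The fibroblast markers summed to 453 TPM in WT CM/CDDO-Me and to 1902 TPM in media/CDDO-Me BMDMs, with Acta2 or Col1a2 at the highest listed value. With vehicle the sum was 900 TPM in WT CM and 1469 TPM in media, and 1 of the 7 markers passed between them, Acta2, which fell from 394 to 126 TPM (-1.57, SE 0.34, adjusted p = 0.00537) in the comparison in which Il4i1, Kmo and Ahr rose. Acta2 was also lower in WT CM than in NRF2 KO CM (416 TPM), where Il4i1 and Ahr were higher (-1.58, SE 0.34, adjusted p = 0.0044, and -1.70, adjusted p = 0.00298, without the libraries that stood apart). With CDDO-Me limma called 0 of the 7 in media (2 at an unadjusted p under 0.05, Acta2 and Dcn) and 0 in WT CM (1 at an unadjusted p under 0.05, Lum). In KEAP1 KO CM 1 passed, Acta2, which fell from 225 to 105 TPM (adjusted p = 0.0294). With the replicate block 2 of the 7 fell with WT CM against media, where 12.8% of all genes passed. With CDDO-Me and the block 1 rose and 1 fell in media (10.7% of all genes), 4 fell in WT CM (33.7%), 6 in KEAP1 KO CM (35.3%) and 2 in NRF2 KO CM (14.5%).

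Of 7 dendritic cell markers, Fscn1 had the highest listed value in 6 of the 8 groups, with means from 37.7 to 132 TPM, and it did not pass with CDDO-Me in WT CM (43.3 and 37.7 TPM, adjusted p = 0.934) or in media (86.8 and 132 TPM, adjusted p = 0.438). Clec9a and Xcr1 mark the cross-presenting type of dendritic cell. Clec9a rose from 0.192 to 105 TPM and Xcr1 from 0.0319 to 3.86 TPM with CDDO-Me in WT CM, while Cd209a fell from 3.57 to 0.00878 TPM. In KEAP1 KO CM Clec9a rose from 0.051 to 60.3 TPM and Xcr1 from 0.0713 to 2.07 TPM, while Cd209a fell from 2.59 to 0.0215 TPM. Ido1 rose and Il4i1 fell in both of these media. With vehicle Cd209a rose from 0.267 TPM in media to the levels of WT CM (1.88, SE 0.17, adjusted p = 3.71e-07) and KEAP1 KO CM (1.47, SE 0.17, adjusted p = 8.54e-06), where Il4i1 also rose. Of the other markers, Flt3 was at most 0.101 TPM, Ccr7 at most 0.347 TPM and Zbtb46 at most 1.13 TPM in the group means. The 5 lymphocyte markers were under 1 TPM in every group mean. Of the epithelial markers, Cdh1 was at 3.52 and 4.65 TPM in WT/vehicle and KEAP1 KO/vehicle BMDMs, the groups with high Il4i1, and at most 0.0886 TPM in the other groups, while Epcam was at most 0.113 TPM. Krt8 had means of 0.0296 and 0.346 TPM in WT/vehicle and KEAP1 KO/vehicle BMDMs, and Krt18 of 0.266 and 0.805 TPM. Both were listed at 0 in media with vehicle and with CDDO-Me, and neither was tested. Granulocyte genes S100a8 and S100a9 were the only 2 of 5 tested, and S100a8 rose with CDDO-Me from 8.72 to 33.5 TPM in WT CM, from 10.1 to 56.8 TPM in KEAP1 KO CM and from 9.55 to 37.0 TPM in NRF2 KO CM. S100a9 did not reach an unadjusted p under 0.05 (limma) with CDDO-Me in any medium. The other 3, Ly6g, Mpo and Elane, were under 1 TPM in every group mean. Mcpt8, a basophil gene, was highest in NRF2 KO/vehicle at 9.98 TPM. The other mast cell and basophil genes did not follow it there. Fcer1a and Ms4a2 were listed at 0, and Cpa3 had a mean of 0.421 TPM, against 0.379 TPM in media/vehicle BMDMs. The part of these other cell types in the results was not tested.

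The genes most like each of the 9 were taken as the 3 with the highest Pearson r over the 24 libraries, among genes with a mean of at least 5 TPM. For Ido1 these were H2-Q6 (0.94), H2-Q7 (0.93) and BC023105 (0.93), and for Ido2 H2-Q7 (0.91), Il4ra (0.91) and Lgals9 (0.91). H2-Q6 and H2-Q7 are near-identical genes, so their own levels are uncertain. For Il4i1 they were Smap2 (0.98), Prps1 (0.97) and Znrf2 (0.95). Kmo was most like Arrdc4 (0.87), Srgn (0.85) and Txnip (0.83), and Kynu most like Sdf4 (0.94), Macroh2a1 (0.93) and Snd1 (0.93). Ahr was most like Olfm1 (0.89), Fut8 (0.88) and Mtx2 (0.86), and Ahrr most like Pik3r6 (0.86), Bach1 (0.86) and Arpc5 (0.85). Cyp1b1 had Vgll3 (0.92), Ctnnd1 (0.89) and Sgce (0.89), and Afmid had no gene above 0.61, the value of Garre1. These are descriptions over libraries that share groups and replicate numbers.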

How the data were processed

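The authors had polyA-selected mRNA libraries sequenced and quantified with kallisto against GRCm39, as the submitters' processing notes and the study's methods give it. The deposited table was taken to hold TPM per gene. Its name calls the values length-scaled counts, and since the named genes sum to 999365 to 999801 in each library, counts brought to a fixed total could not be told apart from TPM. Read numbers, and so the precision from depth, are unknown. The line with no gene name (0.0199 to 0.0635% of TPM) was left out. Groups and replicate numbers came from the sample labels.

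TPM were scaled between libraries by TMM (30% and 5% trimmed), filtered (above 1 TPM in at least 3 of 24 libraries, 13661 genes) and fitted as log2(TPM + 1) with limma 3.58.1 in R 4.3.3, with a mean-variance trend, 1 model of 8 groups and 16 residual degrees of freedom. P-values were two-sided, with Benjamini-Hochberg adjustment over the 13661 genes, at a threshold of 0.05. Scripts were tested on simulated data. Figures used matplotlib 3.10.9 and Python 3.11.15. No 2 libraries held identical values. The 9 genes and the other lists were chosen with earlier results of these data known. From each other pathway list up to 6 genes with the smallest adjusted p could be named in a comparison. Further list genes, genes overlapping in position and marker genes were named after their values were seen. A gene of the pathway lists is not reported here.

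Deviations from the group means of same-numbered libraries had a mean Pearson r of 0.256 over genes (0.0231 to 0.719), with 71 of 84 pairs over 0.1. The mean for other numbers, -0.121, follows largely from removing the group means and is not separate evidence of pairing. The replicate numbers come from the labels, which do not say what they mark. All 3 pairs were over 0.1 in WT CM against media, KEAP1 KO CM against WT CM, and CDDO-Me in media and in NRF2 KO CM, and the fit with the replicate number as a block is given for these. Alternatives changed the scaling, filter, pseudocount, trend, library weights, block and libraries fitted, and left out each library of a comparison in turn.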

Additional observations from a re-analysis of the deposited data

Results flagged for a closer look

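The test of whether CDDO-Me acted differently in a cancer-conditioned medium than in media passed for 7 differences of these genes, all on the log2 scale and all resting on the same media libraries. For WT CM limma called 3 of the 9 genes, where 15.3% of all genes tested passed. Ido2 differed by 1.23 (SE 0.34, adjusted p = 0.0185), Il4i1 by -3.77 (SE 0.66, adjusted p = 0.000341) and Ahr by -1.74 (SE 0.31, adjusted p = 0.000424). For KEAP1 KO CM 4 of the 9 were called, where 14.8% passed. The filter favours the calls of Ido1 and Ido2 among these. Ido1 differed by 1.34 (SE 0.27, adjusted p = 0.0017), Ido2 by 1.04 (SE 0.34, adjusted p = 0.0493), Il4i1 by -3.43 (SE 0.66, adjusted p = 0.000899) and Ahr by -1.34 (SE 0.31, adjusted p = 0.00464). The value of Ido2 in KEAP1 KO CM lost its call in 17 of 22 alternatives, among them without KEAP1 KO CM/vehicle replicate 2 (0.88, adjusted p = 0.139) and without media/vehicle replicate 1 (0.89, adjusted p = 0.135). For NRF2 KO CM limma called 0 of the 9 (1 at an unadjusted p under 0.05, Afmid) and 0 of all genes (358 at an unadjusted p under 0.05), and it called 0 of either without the libraries of NRF2 KO CM numbered 3.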

How the results depend on the processing

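Single differences were followed through the alternatives for the 9 genes only, and of their 108 differences the 48 that passed in at least 1 setting kept their sign in every alternative run. In counts, the setting that moved most results was the weighting of libraries by array weights, which gave 4114 genes in all and 5 of the 9 genes in WT CM against media, 5012 and 5 in KEAP1 KO CM against media, 4 in all in NRF2 KO CM against media, 3396 and 4 in WT CM against NRF2 KO CM, and 975 and 2 in KEAP1 KO CM against WT CM. For CDDO-Me the weights gave 3523 and 3 in media, 7127 and 7 in WT CM, 7005 in all in KEAP1 KO CM, and 2782 and 2 in NRF2 KO CM. For the difference from media they gave 5404 and 6 in WT CM, 5329 in all in KEAP1 KO CM, and 7 and 1 in NRF2 KO CM, and 10887 genes differed among the 8 groups. The lowest weights were 0.0368 and 0.0768, those of the NRF2 KO CM libraries numbered 3.

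Leaving out both of these libraries, an alternative chosen after seeing the data, gave 2590 genes in WT CM against media, 2886 in KEAP1 KO CM against media, 4 of the 9 genes in WT CM against NRF2 KO CM, and for CDDO-Me 2014 genes and 2 of the 9 in media, 5844 genes in WT CM, 6109 in KEAP1 KO CM and 1 of the 9 in NRF2 KO CM. The difference from media then had 3885 genes in WT CM and 4011 in KEAP1 KO CM.

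With the replicate block, which paired the samples by number, WT CM against media had 1743 genes and 5 of the 9, KEAP1 KO CM against media 1784 genes, NRF2 KO CM against media 3 genes, WT CM against NRF2 KO CM 2550 genes and 4 of the 9, and KEAP1 KO CM against WT CM 2 genes. CDDO-Me had 1464 genes and 3 of the 9 in media and 1986 and 2 in NRF2 KO CM. The difference of WT CM from media had 2894 genes (21.2% of all genes) and 5 of the 9. In comparisons where not all pairs were over 0.1, the block also called Kynu in KEAP1 KO CM against media (1.41, adjusted p = 0.00652), in WT CM against NRF2 KO CM (1.14, adjusted p = 0.0207) and for CDDO-Me in WT CM (1.43, adjusted p = 0.00188), Ahrr in WT CM against NRF2 KO CM (0.89, adjusted p = 0.0117), and Ahr for CDDO-Me in KEAP1 KO CM (-0.58, adjusted p = 0.0309).

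Fits of the compared groups alone gave 2076 genes in WT CM against media, 2235 in KEAP1 KO CM against media, 0 in NRF2 KO CM against media, 170 and 0 of the 9 in WT CM against NRF2 KO CM, 1601 and 2 for CDDO-Me in media, 2 of the 9 for CDDO-Me in KEAP1 KO CM, 143 genes for CDDO-Me in NRF2 KO CM, 3640 genes for the difference of WT CM from media and 3434 and 2 for that of KEAP1 KO CM. Without a filter NRF2 KO CM against media had 2 genes, KEAP1 KO CM against WT CM 1, the difference of NRF2 KO CM from media 1, and CDDO-Me in media 0 of the 9. With a filter at 5 TPM, which removes Ido1 and Ido2 from the test, CDDO-Me in WT CM and the difference of KEAP1 KO CM from media each had 2 of the 9. Where this paragraph gives a count of the 9 without one of all genes, the share of all genes in that setting is not given. Without scaling NRF2 KO CM against media had 0 genes.

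Leaving out 1 library at a time gave 617 to 733 genes in WT CM against media (fewest without media/vehicle replicate 1, then 651 without replicate 2), 705 to 916 in KEAP1 KO CM against media (fewest without media/vehicle replicate 1, then 726 without KEAP1 KO CM/vehicle replicate 1), 0 to 3 in NRF2 KO CM against media, 810 to 2477 in WT CM against NRF2 KO CM (fewest without WT/vehicle replicate 3, then 893 without replicate 1, and most without NRF2 KO CM/vehicle replicate 1), 0 to 1 in KEAP1 KO CM against WT CM, 523 to 604 for CDDO-Me in media (fewest without media/vehicle replicate 1) and 0 to 1 for the difference of NRF2 KO CM from media. Of the 9 genes, 0 were called for CDDO-Me in media without any of the 6 libraries, 2 to 4 in KEAP1 KO CM (fewest without CDDO-Me replicate 1 or 2), 0 to 1 in NRF2 KO CM (most without vehicle replicate 3), and 2 to 4 for the difference of KEAP1 KO CM from media (fewest without KEAP1 KO CM/CDDO-Me replicate 1 or 2). The causes were not tested. With read numbers unknown, the precision of genes near 1 TPM, Ido1 and Ido2 above all, rests on the spread of 3 libraries alone.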
